A study of Mus musculus with 8 samples.

Results

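The 34 genes described here encode the cyclins and kinases of mitosis, the motors and binding proteins of the spindle, the outer kinetochore, the spindle checkpoint, the chromosome passenger complex and the regulators of anaphase. They were chosen by name and function from the 38991 gene identifiers of the expression tables, and each was found as 1 row. All 34 passed the minimum of 1 FPKM (fragments scaled to transcript length and library size) in mean over a genotype, as did 12462 genes in all.

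The libraries came from mouse embryonic stem cells, male, of strain C57BL/6 and at a passage below 20, which were derived from embryonic day 3.5 blastocysts on embryonic fibroblasts with LIF and 0.5 µM of the inhibitor PD0325901. Later the cells were moved to 2i ground state medium. A control genotype, iPHet, and the Prmt5 knockout, iPKO, had 4 libraries each, numbered 1 to 4. Both genotypes, the control included, had been given 2 µM 4-hydroxytamoxifen for 48 hours and then new medium. According to the labels most experiments of the study used a single line for each genotype (PC1 for iPHet and PC4 for iPKO), so line and genotype cannot be told apart, and the name iPHet does not say how many intact copies of Prmt5 the control carries.

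Prmt5, which encodes an arginine methyltransferase of spliceosomal Sm proteins, was at 52.8 to 72.2 FPKM in the iPHet libraries and at 11.8 to 15.0 FPKM in the iPKO libraries. All 9 stem cell markers examined were above 1 FPKM, with sums of 2362 to 3794 FPKM in iPHet and 2759 to 2979 FPKM in iPKO. The 9 markers of fibroblast feeders summed to 1.67 to 2.58 FPKM in iPHet and 1.76 to 2.26 FPKM in iPKO, and Col1a2, Col3a1, Postn, Lum, Dcn and Acta2 were listed at 0 in some library. Libraries 1 and 3 of a genotype resembled each other, as did 2 and 4. For the 8580 genes averaging 5 FPKM or more over the libraries, the median absolute log2 difference was 0.061 to 0.070 within these pairs and 0.20 to 0.22 between libraries of different pairs. The labels do not say what an odd or even number stands for, nor whether libraries 1 and 3 were separate cultures. If they were not, every p-value below from a fit of single libraries is too small, since libraries of a pair would not be independent. The fits with averaged pairs count each pair once.

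Entry into mitosis is driven by the kinase CDK1 bound to cyclin B, with help from PLK1 and the aurora kinases. Unattached kinetochores hold the cell before anaphase through the spindle checkpoint, until CDC20 switches on the anaphase-promoting complex, a ubiquitin ligase that marks cyclin B and securin for destruction. Most of these genes are transcribed in a wave late in the cell cycle. Their promoters are known for CCAAT boxes, bound by NF-Y, and for the cell cycle homology region, bound by the MuvB complexes. Embryonic stem cells divide fast.

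The promoters of the 3 members that fell over all 8 libraries and of Ccnb1, the member with the highest level among the cyclins, are shown. They were picked for these calls and, for Ccnb1, by name, not for their letters. All 4 stretches hold CCAAT boxes. Those of Cdc20 and Mki67 also hold the homology letters, which in Ccnb2 lie outside the printed bases. Each line gives the 160 bases directly before the RefSeq transcription start (build GRCm38.p6, 5′ to 3′ on the gene's strand, which is the minus strand in each). Capitals mark CCAAT, and TTTGAA or TTCGAA for the cell cycle homology region, found on either strand.
Cdc20: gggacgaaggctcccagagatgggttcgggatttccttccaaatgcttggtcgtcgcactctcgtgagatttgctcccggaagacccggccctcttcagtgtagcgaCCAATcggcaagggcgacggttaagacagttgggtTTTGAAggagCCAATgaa
Mki67: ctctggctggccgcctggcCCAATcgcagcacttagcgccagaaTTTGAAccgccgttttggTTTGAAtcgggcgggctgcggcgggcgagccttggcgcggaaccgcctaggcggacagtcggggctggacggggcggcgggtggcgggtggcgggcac
Ccnb2: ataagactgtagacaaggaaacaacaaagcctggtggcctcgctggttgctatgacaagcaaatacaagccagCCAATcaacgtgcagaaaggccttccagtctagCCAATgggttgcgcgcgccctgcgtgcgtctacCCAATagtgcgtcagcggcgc
Ccnb1: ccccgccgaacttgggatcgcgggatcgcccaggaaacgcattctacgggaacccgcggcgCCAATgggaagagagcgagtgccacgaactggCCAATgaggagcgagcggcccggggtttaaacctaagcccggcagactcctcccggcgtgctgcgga

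These stretches lie at chr4:118437344-118437503 for Cdc20, chr7:135716380-135716539 for Mki67, chr9:70421555-70421714 for Ccnb2 and chr13:100786487-100786646 for Ccnb1. Those of Cdc20 and Ccnb1 lie partly inside the genes as located below, which reach to 118437352 and 100786570. The bases just after the start were found early in a transcript of the GENCODE annotation for Cdc20 and Ccnb1, but not for Mki67 and Ccnb2. In Cdc20 the homology region begins 18 bases before the start, between CCAAT boxes that begin 53 and 8 bases before it. The 3 boxes of Ccnb2 begin 87, 54 and 21 bases before the start. Windows on chromosome 18, where Cdc25c and Kif20a lie, were left out of the search, for members and for all genes alike. Promoter windows were matched for 28 of the 34 members. Of the members on other chromosomes, Ccna2, Aurkb, Incenp and Tpx2 had none. In windows of 300 bases, 250 before the start and 50 after it, the homology letters were found in 20 of the 28 members (71.4%) and in 19.2% of 32851 windows. CCAAT was found in 20 members (71.4%) and in 37.4% of windows, and both together in 18 members (64.3%) and in 7.52% of windows. The E2F letters TTTCCCGC or TTTGGCGC were found in Kif18a alone of the 28 members and in 1.56% of windows. In the 250 bases before the start alone, the homology letters were found in 10 members (35.7%) and in 17.1% of windows. CCAAT was found there in 20 members (71.4%) and in 33.8% of windows. In Plk1 and Aurka the homology letters lay after the start. Matches of letters are a description, and members called over all 8 libraries and members not called there, Plk1 and Aurka among the latter, carried them.

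**Figure D1:**
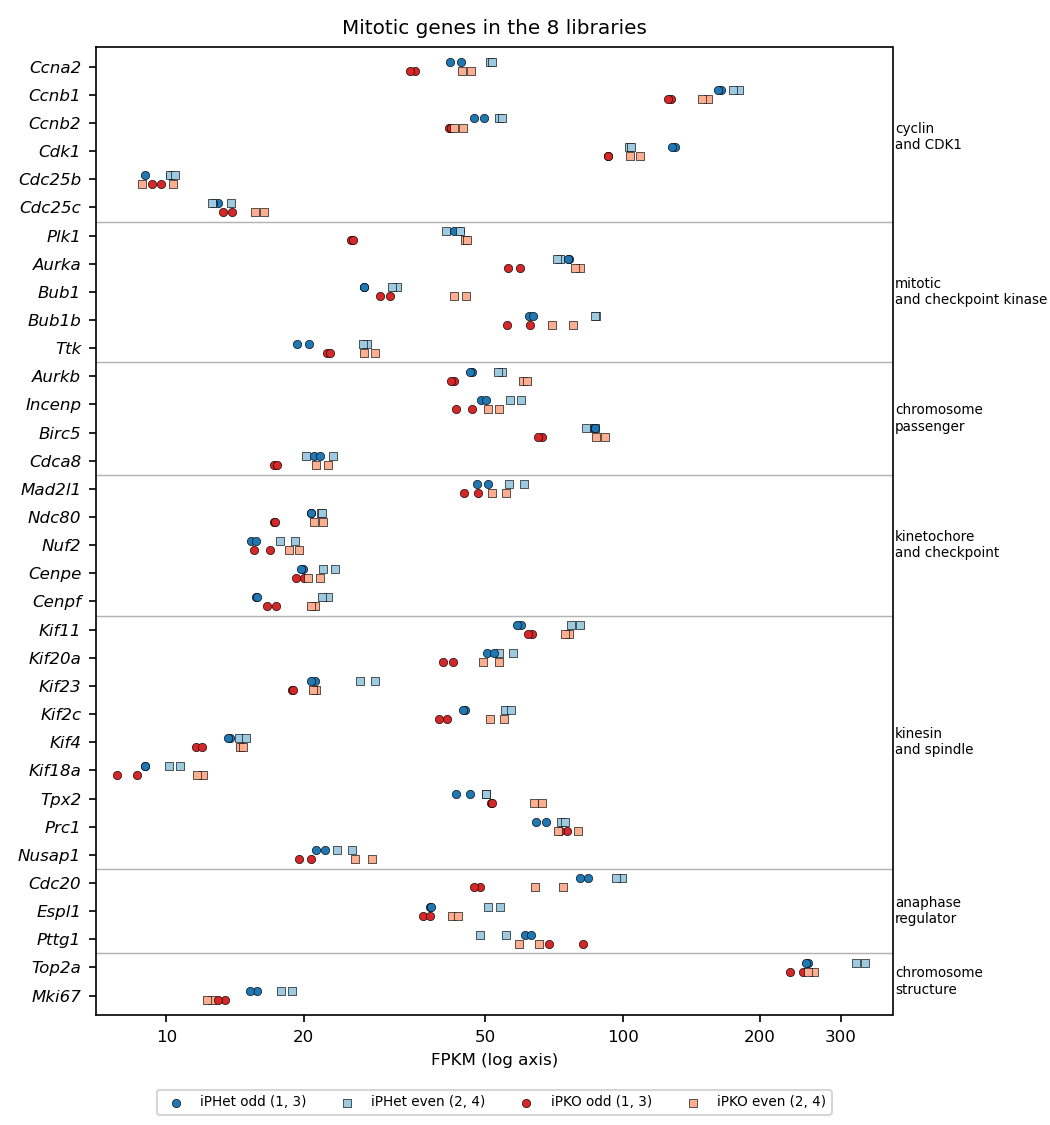
FPKM of the 34 mitotic genes (log axis) in each of the 8 libraries, grouped by role. Circles are libraries 1 and 3 and squares libraries 2 and 4, with iPHet in blue above iPKO in red. In 29 of the 34 genes the genotypes overlap, and squares mostly lie to the right of circles of the same genotype.

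Few of the mitotic genes passed the test between the genotypes over all 8 libraries. Of the 34 members 3 fell in iPKO (8.82%), against 9.53% of all genes tested, so the share was near the background. None rose by limma's test at an adjusted p under 0.05, against 6.3% of all genes. At an unadjusted p under 0.05, 5 members were lower and 1 higher. The share of all genes at that unadjusted cut-off was not counted, so these numbers have no background. The median log2 change of the members was -0.12, beside -0.044 over all genes tested, with 22 members below 0 and 12 above. In bulk RNA fewer cells in mitosis and less RNA per cell cannot be told apart.

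CDC20 is the activator of the anaphase-promoting complex and the target of the spindle checkpoint. Its gene (chromosome 4 from 118432901 to 118437352 of mm10) was at 83.8, 99.7, 80.5 and 96.7 FPKM in iPHet 1 to 4 and at 48.6, 64.2, 47.1 and 73.8 FPKM in iPKO 1 to 4. Every iPKO library lay below every iPHet library. The mean went from 90.2 ± 9.41 to 58.4 ± 12.8 FPKM (SD, n = 4 each), which was 1.54-fold lower. On the log2(FPKM + 1) scale Cdc20 fell by 0.64 (SE 0.15, limma adjusted p = 0.0276), the furthest of the 34 members. It was 1.72-fold lower in the odd-numbered and 1.42-fold lower in the even-numbered libraries. The gene overlaps Elovl1, which averaged 15.5 FPKM in iPHet libraries and 14.3 FPKM in those of iPKO, and reads of the pair can be exchanged.

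Mki67 encodes Ki-67, a protein of the chromosome surface that is used as a marker of dividing cells. The gene (chromosome 7 from 135689788 to 135716379) was at 15.8, 18.9, 15.2 and 17.8 FPKM in iPHet and at 13.5, 12.6, 13.0 and 12.3 FPKM in iPKO. The groups did not overlap, and the spread within iPKO was small. Mki67 fell by 0.37 (SE 0.078, limma adjusted p = 0.0168), from a mean of 16.9 ± 1.71 to 12.8 ± 0.508 FPKM (SD, n = 4 each).

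Ccnb2, one of the B-type cyclins that activate CDK1 (chromosome 9 from 70407689 to 70421554), was at 49.5, 53.6, 47.1 and 54.4 FPKM in iPHet and at 41.7, 44.7, 42.1 and 42.7 FPKM in iPKO. Here too the groups were apart. Ccnb2 fell by 0.25 (SE 0.063, limma adjusted p = 0.0327), from 51.2 ± 3.44 to 42.8 ± 1.36 FPKM (SD, n = 4 each). Pseudogene copies of Ccnb1, Ccnb2 and Kif4 are annotated (Ccnb1-ps, Ccnb2-ps and Kif4-ps), so the values of these 3 genes are uncertain.

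None of the 3 calls held in all alternatives. With a term for odd or even number and all 8 libraries, limma called 9 members lower (against 22.6% of all genes) and 4 higher (against 15.3%). With the means of libraries 1 and 3, and of 2 and 4, as single values and the same term, limma called 0 members. Of all genes 0.016% were called lower and 0.0321% higher. At an unadjusted p under 0.05, 2 members were lower and 0 higher, with the share of all genes not counted. The adjusted p was then 0.216 for Cdc20, 0.313 for Mki67 and 0.368 for Ccnb2, or 0.0669, 0.205 and 0.303 in a fit of protein-coding genes alone, which called 1.05% of genes lower and 0.725% higher and again 0 members. The call of Cdc20 ended without iPHet 1, 2 or 4 or iPKO 1 or 3 (adjusted p of 0.0522 to 0.0744). That of Ccnb2 ended without any library other than iPHet 3 (0.0506 to 0.0835), and that of Mki67 without iPHet 4 (0.0504). Under median-of-ratios scaling Cdc20 (0.0521) and Ccnb2 (0.126) were not called, nor was Ccnb2 after quantile normalization (0.0792).

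With the library number as a block 7 members were lower (20.6%, against 16.6% of all genes) and 3 were higher (8.82%, against 10.9%). The members added as lower were Ccna2, Ccnb1, Incenp and Kif23 (limma adjusted p of 0.0233, 0.0143, 0.0374 and 0.0419). Those added as higher were Bub1, Tpx2 and Pttg1 (0.048, 0.0213 and 0.0186).

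Among the cyclins and CDK1, Ccnb2 was thus the 1 member called of 6, and the group's median log2 change was -0.23. Cyclin B1 is the main partner of CDK1 at entry into mitosis. Its gene (chromosome 13 from 100778650 to 100786570) was at 164, 179.9, 161 and 175 FPKM in iPHet and at 128, 153, 125 and 149 FPKM in iPKO. These groups did not overlap either, at means of 170.04 ± 8.78 and 139 ± 14.5 FPKM (SD, n = 4 each). The log2 change of -0.29 (SE 0.085) missed the threshold, with a limma adjusted p = 0.0518. It passed among protein-coding genes alone (0.0487), which made 4 members lower, and without iPKO 2 (0.0468), and was up to 0.123 without other single libraries. Ccna2, for cyclin A2, had a log2 change of -0.24 and overlaps Exosc9, a gene at 77.8 and 82.1 FPKM in the genotypes. The phosphatases that switch CDK1 on, Cdc25b and Cdc25c, were low, at means over all libraries of 9.74 and 13.9 FPKM, with log2 changes of -0.050 and 0.17.

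Cdk1 itself (chromosome 10 from 69336635 to 69352938) was at 130.2, 103, 128 and 104 FPKM in iPHet and at 92.7, 104, 93.0 and 109 FPKM in iPKO. The odd-numbered libraries were the highest of iPHet and the lowest of iPKO, and the even-numbered ones were alike in both genotypes. Over all libraries its log2 change was -0.22 (SE 0.10, limma adjusted p = 0.19).

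The next role is that of the kinases beside CDK1. None of the 5 kinases of this group was called over all libraries. PLK1 acts at centrosomes, kinetochores and the midbody. Its gene (chromosome 7 from 122159437 to 122169875) was at 44.1, 40.9, 42.8 and 43.9 FPKM in iPHet and at 25.4, 45.0, 25.7 and 45.5 FPKM in iPKO. The 2 odd iPKO libraries stood apart from the other 6, which lay within 40.9 to 45.5 FPKM. Plk1 was therefore 1.70-fold lower in iPKO among odd libraries, and 1.07 times the iPHet level among even ones.

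Aurora A, which builds the spindle poles, followed the same order. Aurka (chromosome 2 from 172356190 to 172370535) was at 76.4, 72.7, 75.8 and 71.8 FPKM in iPHet and at 56.0, 80.5, 59.4 and 78.4 FPKM in iPKO. Again libraries 1 and 3 of iPKO were the lowest of the 8, and libraries 2 and 4 the highest. Bub1, a checkpoint kinase of the kinetochore, was at 27.1, 32.1, 27.1 and 31.3 FPKM in iPHet and at 30.8, 45.4, 29.4 and 42.7 FPKM in iPKO. Its groups overlapped, and within each pair of libraries iPKO was the higher. The log2 changes over all libraries were -0.13 for Aurka, 0.31 for Bub1, -0.16 for Bub1b and 0.11 for Ttk, the last pair being checkpoint kinases too.

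The chromosome passenger complex joins the kinase aurora B to INCENP, survivin and borealin and corrects faulty attachments to the spindle. Of its 4 genes 0 were called, and Aurkb lay at 46.7, 54.3, 46.2 and 53.2 FPKM in iPHet and at 42.6, 60.6, 42.0 and 61.7 FPKM in iPKO. Birc5, the survivin gene, was at 86.1, 86.9, 87.0 and 83.0 FPKM in iPHet and at 66.4, 91.4, 65.2 and 87.6 FPKM in iPKO. For both genes the odd iPKO libraries were the lowest of the 8 and the even ones the highest. Incenp and Cdca8, the borealin gene, had log2 changes of -0.15 and -0.14, and Cdca8 overlaps 9930104L06Rik.

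Of the 5 kinetochore and checkpoint genes 0 were called, with log2 changes from -0.14 (Ndc80) to 0.051 (Nuf2), both subunits of the NDC80 complex that grips microtubules. Mad2l1, the checkpoint protein that binds CDC20, was highest of them at 50.8, 60.6, 48.0 and 56.3 FPKM in iPHet and 48.1, 55.5, 44.9 and 51.7 FPKM in iPKO. Its libraries overlapped between genotypes. Cenpe, a kinetochore kinesin, and Cenpf had means over all libraries of 20.8 and 19.0 FPKM and log2 changes of -0.059 and 0.0078.

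Kinesins and spindle proteins numbered 9, none of them called, with a median log2 change of 0.010. Prc1, which bundles the microtubules of the central spindle, was at 67.9, 73.3, 64.6 and 74.7 FPKM in iPHet and 75.6, 79.6, 73.0 and 72.1 FPKM in iPKO. Tpx2, the activator of aurora A at the spindle, is added here after its values were seen, as the 1 member whose iPKO libraries all lay above the iPHet ones. It was at 46.3, 50.1, 43.0 and 50.2 FPKM in iPHet and at 51.6, 66.5, 51.6 and 63.8 FPKM in iPKO, a log2 change of 0.29 (SE 0.10, limma adjusted p = 0.0978). The lowest log2 changes of the group were those of Kif23 (-0.26), a motor of the midzone, and Kif20a (-0.20), which overlaps Cdc23 at 74.9 and 72.7 FPKM. Kif11, the motor that pushes the poles apart, averaged 69.0 and 69.1 FPKM, and Kif2c, Kif4, Kif18a and Nusap1 had log2 changes of -0.12, -0.11, 0.025 and 0.011. Kif4, at a mean of 13.7 FPKM over all libraries, overlaps Pdzd11 at 10.6 FPKM.

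Beside Cdc20, the anaphase group held Espl1, for the protease separase, and Pttg1, for its inhibitor securin. Their means were 45.1 and 40.0 FPKM for Espl1 and 57.0 and 68.9 FPKM for Pttg1 in iPHet and iPKO, with log2 changes of -0.15 and 0.27, neither called. Top2a, for the topoisomerase that untangles sister chromatids, had the highest level of the 34 members. It was at 255, 339.9, 252 and 324 FPKM in iPHet and at 248, 263, 233 and 255 FPKM in iPKO. The even iPHet libraries stood above the other 6, and the log2 change over all libraries was -0.22 (limma adjusted p = 0.228).

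Groups of libraries that did not overlap were found for Ccnb1, Ccnb2, Cdc20 and Mki67 on the lower side (11.8% of members, against 15% of all genes tested) and for Tpx2 on the higher side (2.94%, against 10.1%).

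**Figure D2:**
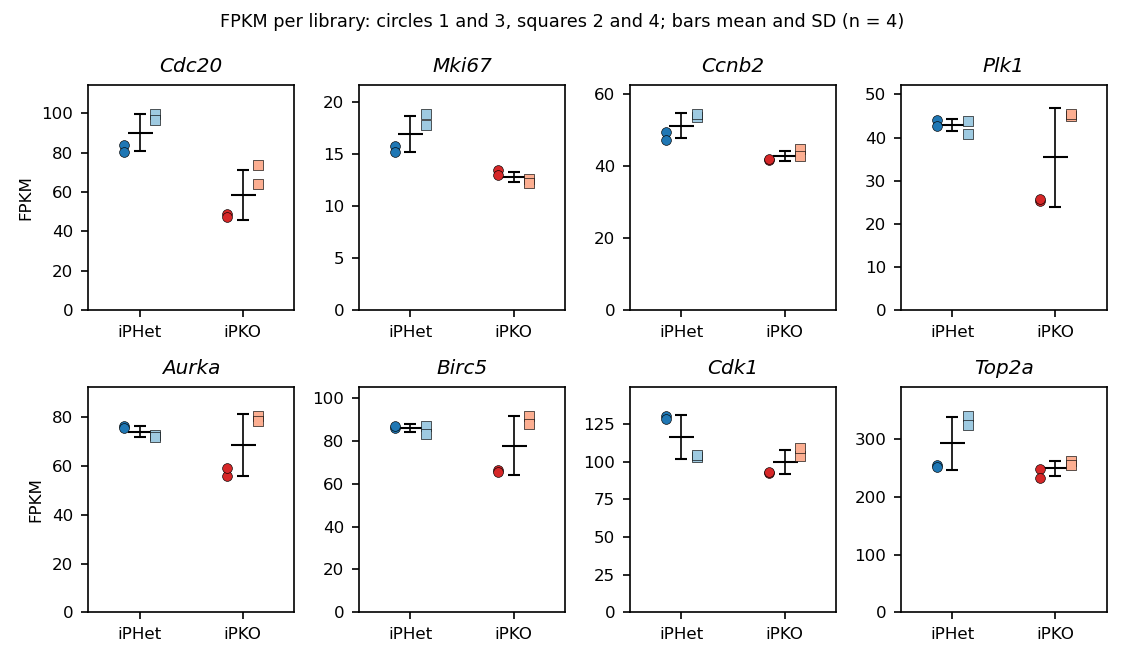
FPKM of 8 mitotic genes in each library (linear axes from 0). Circles are libraries 1 and 3, squares libraries 2 and 4, and black bars the mean with SD (n = 4). Cdc20, Mki67 and Ccnb2 are lower in every iPKO library, while Plk1, Aurka and Birc5 are lower in the odd iPKO libraries alone, at 25.4 and 25.7 FPKM for Plk1.

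The odd-numbered and even-numbered libraries were then taken apart. Plk1, Cdk1, Aurka and Birc5 were lower in iPKO among odd libraries and not among even ones, and for these 4 and 9 further members the difference between the 2 changes passed its own test. That test is the interaction of genotype with odd or even number, fitted across all genes with limma. It called 13 of 34 members (38.2%), against 28.5% of all genes tested. In 9 of the 13 the iPKO minus iPHet change was higher in the even libraries (26.5% of members, against 15.6% of genes), and in 4 it was lower (11.8%, against 12.9%). Since each cell of this test holds 2 libraries that resemble each other, its spread is that within the pairs, and with pairs averaged it cannot be fitted.

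The interaction was furthest from 0 for Plk1, whose log2 change was -0.74 in odd and 0.091 in even libraries (difference 0.83, SE 0.060, limma adjusted p = 0.000618). Cdk1 followed with -0.47 and 0.037 (adjusted p = 0.00135), Aurka with -0.39 and 0.13 (0.00182), Birc5 with -0.39 and 0.074 (0.00256) and Aurkb with -0.13 and 0.18 (0.0044). Bub1 was higher in both, by 0.15 and 0.46 (0.0141). These 6 members were called in the interaction test without any single library. Ndc80, Kif4 and Kif18a also had the higher change in even libraries, with adjusted p of 0.0197, 0.0468 and 0.0405.

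In the opposite direction lay Mki67, with log2 changes of -0.22 in odd and -0.53 in even libraries (limma adjusted p = 0.017), Top2a with -0.078 and -0.36 (0.0183), Espl1 with -0.029 and -0.28 (0.0267) and Kif23 with -0.14 and -0.37 (0.0424). Those 4 and Ndc80, Kif4 and Kif18a, 7 members in all, lost the interaction call without some single libraries. Of these 7, 0 were called without iPHet 3, and the highest adjusted p over all 8 such fits was 0.121, of Kif4 without iPKO 1. Kif18a kept its call without iPKO 1 (0.0369), Mki67 without iPHet 1 (0.0406) and Ndc80 without iPKO 4 (0.0268), each as the 1 of the 7 to do so. Espl1 and Mki67 kept it without iPHet 2, and Top2a and Mki67 without iPKO 3. Ndc80, Top2a and Mki67 kept it without iPKO 2, as did these 3 and Kif23 without iPHet 4. The difference for Cdc20, with -0.77 and -0.51, was not called (0.0843).

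**Figure D3:**
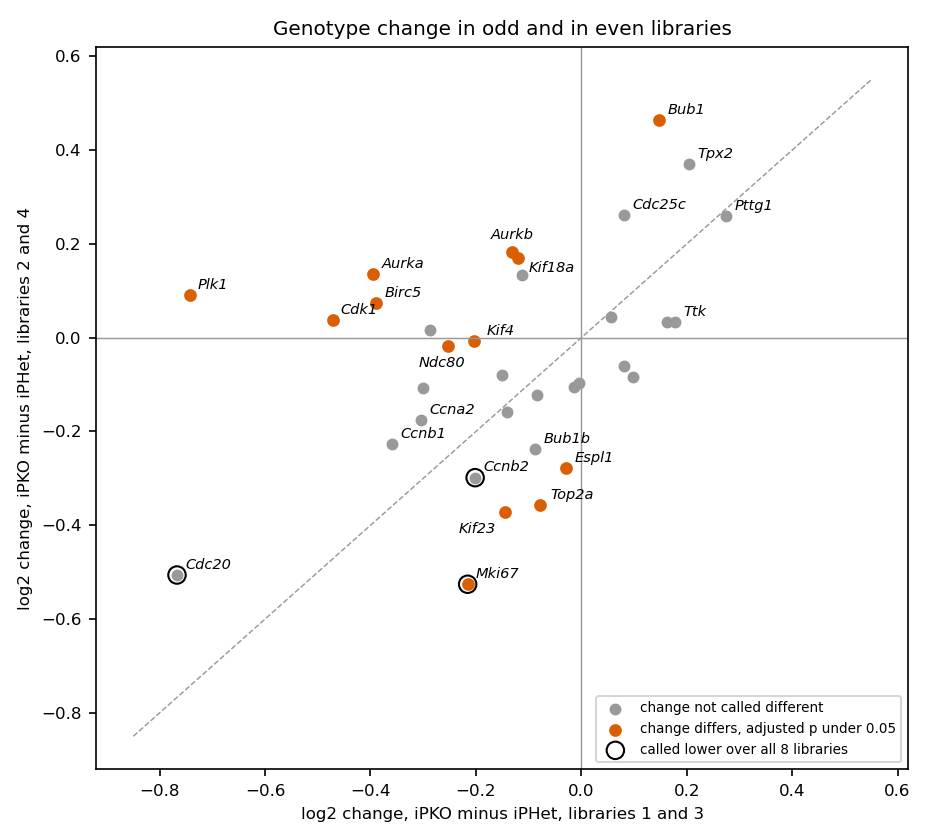
Log2 change between the genotypes (iPKO minus iPHet) of the 34 mitotic genes in libraries 1 and 3 (x axis) and in libraries 2 and 4 (y axis). Orange points mark the 13 genes whose 2 changes differ, rings the 3 genes called lower over all libraries, and the dashed line equal changes. Plk1 lies at -0.74 and 0.091, and Cdc20 at -0.77 and -0.51, a difference that was not called.

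Fits within each set gave 16 members lower among odd libraries (47.1%, against 27.3% of all genes) and 4 higher (11.8%, against 18%). Among even libraries 9 were lower (26.5%, against 22.5%) and 5 were higher (14.7%, against 17.7%). Both sets called Ccna2, Ccnb1, Ccnb2, Kif23, Cdc20 and Mki67 lower, 6 members beside 11.7% of genes, and Bub1 and Tpx2 higher, 2 members beside 7.39% of genes. Aurka and Aurkb were called lower in the odd and higher in the even set, 2 members beside 2.83% of genes, and no member was called in the opposite order, as 1.07% of genes were. The members' median log2 change was -0.13 in odd and -0.039 in even libraries, beside -0.054 and -0.028 over all genes.

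Counted without a test, both odd iPKO libraries lay below both odd iPHet libraries for 21 members (61.8%, against 44.5% of genes) and above them for 8 (23.5%, against 32.2%). Among even libraries 15 members lay below (44.1%, against 40.8%) and 10 above (29.4%, against 34%). Plk1, Aurka, Aurkb, Birc5, Kif18a and Nusap1 lay below in the odd and above in the even libraries, 6 members (17.6%) beside 9.41% of genes. Kif18a, a kinesin of chromosome alignment, overlaps Mettl15, and Nusap1, a microtubule binder, overlaps Oip5.

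Within a genotype, most mitotic genes were higher in the even-numbered libraries. In iPHet both even libraries lay above both odd ones for 27 of 34 members (79.4%, against 30.2% of all genes tested), and below them for 3, Cdk1, Aurka and Pttg1 (8.82%, against 44.7%). In iPKO they lay above for 30 members (88.2%, against 33.7%) and below for 2, Pttg1 and Mki67 (5.88%, against 42.1%). The median log2 difference, even minus odd, was 0.19 in iPHet and 0.29 in iPKO over the members, and -0.060 and -0.030 over all genes. After quantile normalization it was 0.24 and 0.28, and after median-of-ratios scaling 0.26 and 0.32. No test was made of this, with 2 libraries against 2.

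The members with the widest step differed between the genotypes. In iPHet they were Cenpf (log2 difference 0.47), Bub1b (0.46), Espl1 (0.45) and Ttk (0.43). In iPKO they were Plk1 (0.80), Bub1 (0.53), Aurkb (0.52) and Cdc20 (0.51). Plk1 had nearly no step in iPHet (-0.034), and the Cdk1 step went from -0.31 in iPHet to 0.20 in iPKO. Securin's gene, Pttg1, was lower in even libraries of both, by -0.25 and -0.27.

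Other values moved with the odd and even numbers as well. The summed FPKM was 458690 and 458856 in the odd iPHet libraries and 417672 and 421412 in the even ones, but 411827 to 417539 in all 4 iPKO libraries. The summed stem cell markers were 3724 and 3794 FPKM in odd and 2362 and 2460 FPKM in even iPHet libraries, and 2889 and 2979 against 2759 and 2852 FPKM in iPKO. Of 5 trophoblast markers none was at 0, and their sums were 12.5 and 13.1 against 7.72 and 8.11 FPKM in iPHet, and 21.4 and 22.5 against 12.1 and 12.2 FPKM in iPKO. Single genes weighed heavily in these sums. Dppa5a averaged 1480 FPKM among the stem cell markers. Eomes averaged 9.86 FPKM among the trophoblast markers, of which 2 averaged 1 FPKM or more. The part of these odd and even differences in the mitotic gene levels was not tested.

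**Figure D4:**
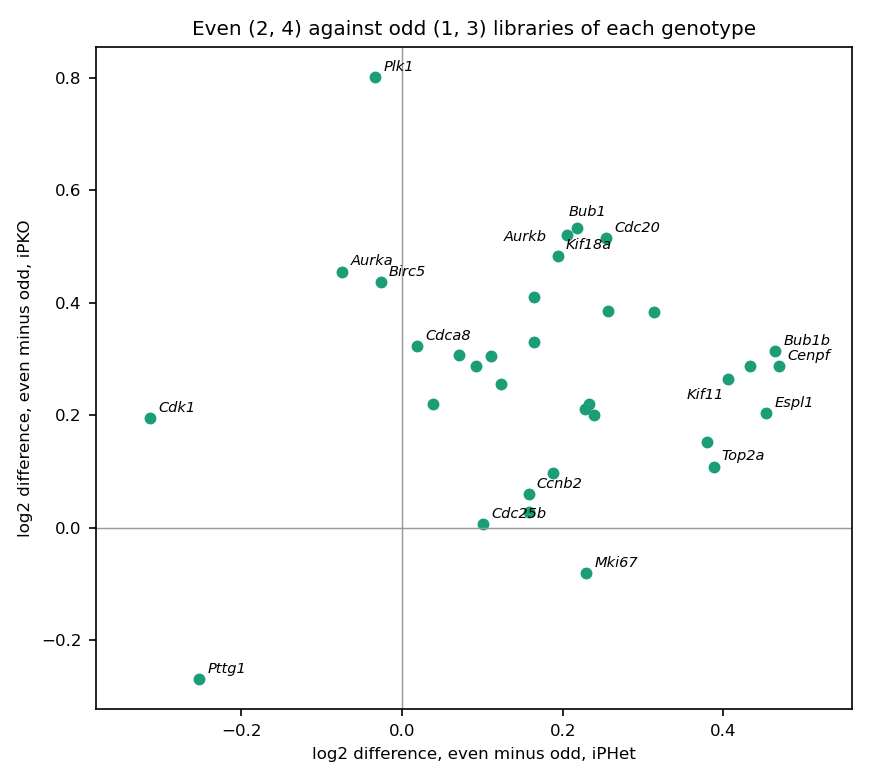
Difference in mean log2(FPKM + 1) between even (2 and 4) and odd (1 and 3) libraries of each mitotic gene, in iPHet (x axis) and in iPKO (y axis). Points right of and above the 0 lines are higher in even libraries of both genotypes. Only Pttg1 lies below 0 in both, and Plk1 reaches 0.80 in iPKO at -0.034 in iPHet.

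A list of 104 other mitotic genes, chosen by function, gave the setting. Of these 9 fell (8.65%, against 9.53% of all genes) and 8 rose (7.69%, against 6.3%), and the list's median log2 change was -0.033. The interaction test called 31 of them (29.8%, against 28.5%). With the library number as a block 17 of the 104 were lower and 13 higher, against 16.6% and 10.9% of all genes. With averaged pairs limma called 0, against 0.016% of all genes lower and 0.0321% higher. At an unadjusted p under 0.05 that fit had 8 lower and 8 higher, and the share of all genes there was not counted.

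In the anaphase-promoting complex and its enzymes 3 of 16 genes fell and 0 rose, against 9.53% and 6.3% of all genes. Anapc11, the RING subunit, fell by 0.44 on the log2 scale (limma adjusted p = 0.00838), the iPHet mean being 40.9 ± 3.79 FPKM and the iPKO mean 29.8 ± 1.48 FPKM (SD, 4 libraries each). Ube2c, the E2 enzyme that works with it, was at 123, 107, 121 and 109.5 FPKM in iPHet and at 65.4, 91.3, 69.3 and 93.1 FPKM in iPKO, with the odd iPKO libraries lowest, as for Plk1. It fell by 0.54 over all libraries (adjusted p = 0.0264), by 0.85 in odd and by 0.23 in even libraries, and the interaction was called (0.00109). Fzr1, the activator that takes over from CDC20 late in mitosis, fell by 0.22 (0.0408) and overlaps Mfsd12. Both Ube2c and Fzr1 missed the threshold with the block (0.0524 and 0.0519). The Ube2c call ended on leaving out iPHet 1, 3 or 4 or iPKO 1 or 3 (up to 0.0676), and Fzr1 without any library but iPHet 2 (up to 0.101).

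Of 25 centromere and kinetochore genes 4 fell and 4 rose, against the same 9.53% and 6.3% of all genes. Cenpa, the histone variant that marks centromeres, fell by 0.32 (limma adjusted p = 0.0101), the iPHet mean being 61.2 ± 0.811 FPKM and the iPKO mean 48.8 ± 3.08 FPKM (SD, 4 libraries each). Cenpo, of the inner kinetochore, fell by 0.55 (0.00395) and overlaps Adcy3 and Ptrhd1, while Cenph, of the same assembly, rose by 0.38 (0.00763). The others, named after their values were seen, were Cenpm and Cenpc1, which fell, and Ska3, Dsn1 and Cenpq, which rose. Among these, the call ended for Cenpm without iPHet 2, 3 or 4 or iPKO 2 (up to 0.0571), Cenpc1 without iPHet 1 or 4 or iPKO 1 or 3 (up to 0.0612) and Cenpq without any library but iPKO 3 (up to 0.111).

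Zw10 and Zwilch, partners in the complex that brings dynein to kinetochores, rose by 0.31 and 0.39 on the log2 scale (limma adjusted p of 0.00895 and 0.0112), as 2 of 10 checkpoint and cohesion genes. Kntc1, also among the 10 and added after its values were seen, had a log2 change of -0.027 (limma adjusted p = 0.881). Cep55, which acts in the final cut between daughter cells, rose by 0.61 (adjusted p = 0.00937), with means of 58.8 ± 5.61 and 90.9 ± 12.2 FPKM (SD, 4 libraries each), and Dlgap5, a spindle protein, fell by 0.30 (0.0212), out of 18 spindle and cytokinesis genes. Of 12 transcription regulators Foxm1, an activator of G2/M genes, rose by 0.35 (0.0244) and E2f8, a repressor of the E2F family, fell by 0.88 (0.0474). Beside the counts of these 3 lists, 9.53% of all genes tested fell and 6.3% rose. The calls of Dlgap5 (without iPHet 2 or 4 or iPKO 1 or 3, up to 0.0601), Foxm1 (iPHet 1, 2 or 3 or iPKO 2 or 4, up to 0.0637) and E2f8 (any library but iPHet 1 or 3, up to 0.111) ended. Among 8 condensin genes and 15 other kinases and entry regulators limma called 0. Arpp19, among the latter, was listed at 0 FPKM in iPHet 1 and at 37.9 to 47.2 FPKM in the other libraries. Its log2 change of 1.39 (SE 1.17) therefore hangs on that library.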

How the data were processed

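RNA was measured in 8 libraries by paired reads of 100 bases, per the labels' protocols. The authors deposited FPKM per gene and library together with bounds and a status flag, as the columns are named per the file headers. Trimmomatic and build mm10 appear in the submitters' processing notes. Which aligner and quantifier were run, and how strand was handled, is not given in the sources used here. The bounds were not used, since 104 of 272 member values lay outside their own. No member value had a failed status. Absolute depth is unknown, and relative depth, read from the lowest values, was 0.768 to 1.24 times that of iPHet 1. Rows of 1 identifier were summed.

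Values were log2(FPKM + 1), tested with limma 3.58.1 (intensity trend, R 4.3.3, package data.table, version 1.17.8) over 12462 genes averaging 1 FPKM or more in a genotype. Fold changes of low genes are understated. Benjamini-Hochberg adjusted p under 0.05 was a call, for which alone rose and fell are used. All 8 libraries entered with no covariate. The same fit with genotype, odd/even number and their interaction tested differences between odd and even libraries. The scripts were tested on simulated data. Between genotypes, same-numbered libraries' deviations from group means correlated at 0.104, 0.162, 0.204 and 0.107, all above the 0.1 taken to pair them. The other odd-odd and even-even combinations gave 0.077 to 0.124 (iPHet 2 with iPKO 4), so the pairing is not specific to the number. It comes from the data, not the labels.

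Members and lists were chosen with earlier results of these data known. Values per library are given for called members, for up to 8 members called in the interaction test, for the highest member of each role, and for Cdk1, Ccnb1, Plk1 and Aurkb. Of the other mitotic genes up to 3 called per list are given. Lists of stem cell, feeder, primitive endoderm, trophoblast, neuroectoderm and mesoderm markers were summed. The largest sums over libraries of the endoderm, neuroectoderm and mesoderm lists were 4.73, 6.82 and 15.3 FPKM. Eomes was on both the trophoblast and the mesoderm list, and had the highest mean in each. Alternatives were other designs, pseudocounts, filters, scalings and gene sets, and leaving out each library. Promoter sequences are RefSeq's (GRCm38.p6), matched by symbol.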

Additional observations from a re-analysis of the deposited data

Results flagged for a closer look

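The change between genotypes differed between odd-numbered and even-numbered libraries, by the interaction test, for 13 members. The difference in log2 change, even minus odd, was 0.83 for Plk1, 0.51 for Cdk1, 0.53 for Aurka, 0.46 for Birc5, 0.32 for Aurkb, 0.32 for Bub1, 0.24 for Ndc80, 0.29 for Kif18a and 0.20 for Kif4. It was -0.31 for Mki67, -0.28 for Top2a, -0.25 for Espl1 and -0.23 for Kif23. Among all genes tested 28.5% were called in the same test.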

How the results depend on the processing

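The members' median log2 change stayed below 0 in every alternative, from -0.18 to -0.039. The block, the odd/even term, averaged pairs, filters and the protein-coding set could not move it from -0.12. The median of all genes was below 0 as well, at -0.044 over all libraries and -0.028 in even ones. After quantile normalization the members' median was -0.071 beside -0.0097 over all genes. After median-of-ratios scaling it was -0.076 beside -0.0018. The count of lower members, 3, became 7 with the replicate block, 9 with an odd/even term, 16 in odd-numbered and 9 in even-numbered libraries alone, 4 among protein-coding genes, 1 with median-of-ratios scaling and 0 with averaged pairs, whether over all or protein-coding genes (the latter fit added after the data were seen). Without single libraries it was 0 to 3. The count of higher members, 0, became 3 with the replicate block, 4 with the odd/even term, 4 in odd and 5 in even libraries. Among related mitotic genes the 9 lower became 17 with the block, 24 with the term, 32 in odd and 22 in even libraries, 5 with quantile normalization, 5 with median-of-ratios scaling and 0 with averaged pairs, also among protein-coding genes, and were 3 to 7 without single libraries. The 8 higher became 13, 16, 18 and 23 with the block, the term, odd and even libraries, and 0 with both averaged fits. These counts are out of 104 genes. In the same 4 fits 16.6%, 22.6%, 27.3% and 22.5% of all genes were lower, and 10.9%, 15.3%, 18% and 17.7% were higher. The count of members called in the interaction test, 13, was 7 to 11 without single libraries, not always of the same members, and 13 to 15 under other pseudocounts, filters and scalings. A lone library left in a cell is then assumed to vary like the others. Aurka reversed in even libraries (log2 change 0.135) and Aurkb in odd ones (-0.13). The cause of these changes was not tested. Absolute depth is unknown, so its limit on small changes was not measured.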
